A study of Mus musculus with 16 samples.

Results

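Embryonic stem cells of the mouse kept in LIF (leukaemia inhibitory factor) read the cytokine through a short chain of proteins, and the 8 genes described here encode that chain and its early targets: Lifr, Il6st, Jak1, Stat3, Socs3, Pim1, Pim3 and Gbx2. They were taken by symbol from the gene count table, where each matched 1 of 56941 gene entries, and all 8 passed the filter on low counts. LIF binds its receptor LIFR, which pairs with the shared signalling subunit gp130, the product of Il6st. The kinase JAK1, bound to gp130, then phosphorylates the transcription factor STAT3, which enters the nucleus and switches on genes that help to keep these cells undifferentiated. Among those genes are Socs3, whose protein blocks the receptor and kinase in a negative feedback loop, the serine/threonine kinases Pim1 and Pim3, and the homeobox factor Gbx2.

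The libraries hold RNA bound to chromatin in E14TG2a, a mouse embryonic stem cell line, in cells that ectopically expressed a histone demethylase. KDM4A and KDM4B remove methyl groups from H3K9 and H3K36, and KDM6A and KDM6B remove them from H3K27. Each was given either full-length (FL) or without its intrinsically disordered region, a stretch with no fixed fold. The deletion is named del-cIDR in the titles and del-IDR in the genotype labels, and the residues removed are not given there. This makes 8 groups of 2 libraries: KDM4A FL, KDM4A del-IDR, KDM4B FL, KDM4B del-IDR, KDM6A FL, KDM6A del-IDR, KDM6B FL and KDM6B del-IDR. All groups were grown in medium with 15% FBS, 1000 U/ml LIF, 1 µM PD0325901, an inhibitor of MEK, and 3 µM CHIR99021, an inhibitor of GSK3. Every library therefore came from cells under constant LIF and carried a construct, so no comparison is with cells that lack one. The labels do not say which promoter drove the constructs, whether a group was 1 clone, or whether its 2 libraries were grown as separate cultures. The p-values reflect only the spread of these libraries, which may be technical.

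Libraries held 32739117 to 54890756 reads on genes. Markers of embryonic stem cells (10 genes, among them Pou5f1 and Nanog) summed to 1536 to 2389 CPM, while 8 fibroblast markers summed to 3.62 to 8.36 CPM. CPM are read counts scaled to library size, with library sizes adjusted by the trimmed mean of M-values (TMM). Reads on Kdm6a were 3.67-fold higher in the KDM6A libraries (429 ± 11.3 CPM, SD, n = 4) than in the other 12 (117 ± 22.4). The ratio was 1.21 for Kdm4a, 1.03 for Kdm4b and 1.19 for Kdm6b, so these counts do not separate construct from endogenous RNA for those 3. On the leading axis of a multidimensional scaling plot, which took 39.5% of the variance, KDM4A del-IDR and both KDM6B groups stood at 1.56 to 1.71 and the other libraries at -1.90 to -0.07. The same 6 libraries had fewer intronic repeat reads per 100 gene reads (27.5 to 38.7 against 52.6 to 65.5), more reads on ribosomal protein genes (1.39% to 2.65% against 0.83% to 1.12%) and more ERCC control RNA (1.06% to 1.55% of gene reads against 0.58% to 0.81%). ERCC RNAs are artificial transcripts that the labels do not mention, and scaling to them in place of TMM moved the median gene by -0.65, -0.19, -0.22 and -0.38 on the log2 scale in the deletion contrasts of KDM4A, KDM4B, KDM6A and KDM6B. Directions are therefore relative to the typical gene, and values under ERCC scaling are given beside them. A gene was called where the adjusted p of the edgeR quasi-likelihood test was under 0.05.

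STAT proteins bind palindromic elements of the form TTCNNNGAA, and this pattern was searched on both strands of RefSeq promoter windows (GRCm38.p6, 250 bases before to 50 after each start). It was present in 2726 of 32851 windows (8.30%). Of the 10 windows of the 8 genes, 1 held it, that of Socs3. The narrower form TTCCNGGAA, which the first pattern includes, was in 1.15% of all windows and in none of these 10. The upstream stretches of Socs3, Pim1 and Pim3 are printed because these STAT3 targets rose under both scalings with the KDM4A deletion. Each ends where an annotated GENCODE exon begins, and capitals mark the match.
Socs3, chr11:117969452-117969616, GRCm38.p6, minus strand: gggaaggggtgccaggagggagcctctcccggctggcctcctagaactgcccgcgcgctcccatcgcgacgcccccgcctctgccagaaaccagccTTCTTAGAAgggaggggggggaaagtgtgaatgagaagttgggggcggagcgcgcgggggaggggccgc
Pim1, chr17:29490535-29490752, GRCm38.p6, plus strand: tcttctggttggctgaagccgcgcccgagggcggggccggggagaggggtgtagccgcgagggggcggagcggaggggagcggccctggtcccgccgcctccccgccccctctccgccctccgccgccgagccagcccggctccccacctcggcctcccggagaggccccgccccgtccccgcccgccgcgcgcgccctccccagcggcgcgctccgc
Pim3, chr15:88861944-88862185, GRCm38.p6, plus strand: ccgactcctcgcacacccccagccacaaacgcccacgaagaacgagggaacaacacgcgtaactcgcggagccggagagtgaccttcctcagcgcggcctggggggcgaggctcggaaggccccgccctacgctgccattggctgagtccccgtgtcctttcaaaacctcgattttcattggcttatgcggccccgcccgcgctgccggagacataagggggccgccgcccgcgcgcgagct
The Socs3 match, TTCTTAGAA, lay 154 to 146 bases before the RefSeq start. All 3 stretches were rich in G and C, at 70.3% for Socs3, 83.0% for Pim1 and 67.4% for Pim3. These are letters in a window, and binding was not measured.

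Per kilobase of exon, the mean level over all 16 libraries was 25.3 CPM for Lifr, 20.1 for Pim3, 17.4 for Stat3, 13.6 for Jak1, 13.5 for Socs3, 12.2 for Il6st, 10.4 for Pim1 and 0.767 for Gbx2. Gbx2 was thus by far the rarest RNA, with 36 to 152 reads a library. The highest group mean exceeded the lowest by 4.62 times for Socs3 and 4.52 times for Pim3, but by only 1.29 times for Il6st. All 8 passed the test over the 8 groups at an adjusted p under 0.05, as did 75.8% of the 31057 genes tested. Over the 28 pairs of groups, which share libraries, the members gave 162 calls of 224 (72.3%), where all genes gave 39.9%. All genes include rare ones, down to a minimum count of 10, for which a difference is harder to call. Gbx2 was called in 11 of 28 pairs (39.3%), while the other members had at least 638 reads in every library. No share of genes of like depth stands beside the 72.3%, so the excess is not shown to be particular to these genes.

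For 7 of the 8 genes, all but Il6st, the 3 highest groups by TMM-scaled mean were KDM4A del-IDR, KDM6B FL and KDM6B del-IDR, which held for 2 of 8 with ERCC scaling. In Lifr, Jak1, Stat3, Socs3, Pim1 and Pim3 the lowest of those 6 libraries lay above the highest of the other 10. With ERCC scaling the 3 groups stayed on top, again without overlap, for Socs3 (38.6 CPM and above against 35.7 and below) and Pim3 (46.5 and above against 42.3 and below). The 3 highest groups of Lifr, Il6st, Jak1 and Stat3 became KDM4B FL, KDM4B del-IDR and KDM6A FL, and KDM6B del-IDR became the lowest of all 8 groups for each of those genes. The libraries that were high with TMM scaling are those named above with few intronic repeat reads and much ribosomal protein and ERCC RNA, and the part of these shares in the result was not tested. Markers of primitive endoderm (8 genes, none without reads, among them Gata6 and Pdgfra) moved with them as well, at 511 ± 14.8, 416 ± 19.5 and 447 ± 9.80 summed CPM (SD, n = 2) in KDM4A del-IDR, KDM6B FL and KDM6B del-IDR against means of 187 to 251 in the other groups, and their part was not tested either. Of those 8 markers 7 rose and 0 fell with the KDM4A deletion, beside 24.6% and 25.9% of all genes. With ERCC scaling 5 rose and 0 fell, beside 1464 and 17766 of 31057 genes. Markers of primed epiblast (5 genes) were highest in the same 3 groups, at 128 ± 6.61, 138 ± 0.198 and 147 ± 1.01 summed CPM. Their means in the other groups were 78.4 to 101, and their part was not tested. Markers of embryonic stem cells summed to 1820 ± 34.9 CPM in KDM4A del-IDR, 2142 ± 30.8 in KDM6B FL and 2381 ± 11.7 in KDM6B del-IDR. Means of 1569 to 2071 were found in the other groups, so these markers were highest in the KDM6B groups but not in KDM4A del-IDR. All these marker sums are TMM-scaled, and whether their order holds with ERCC scaling was not examined. Fewer cells of a type and less RNA per cell cannot be told apart in bulk samples.

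**Figure D1:**
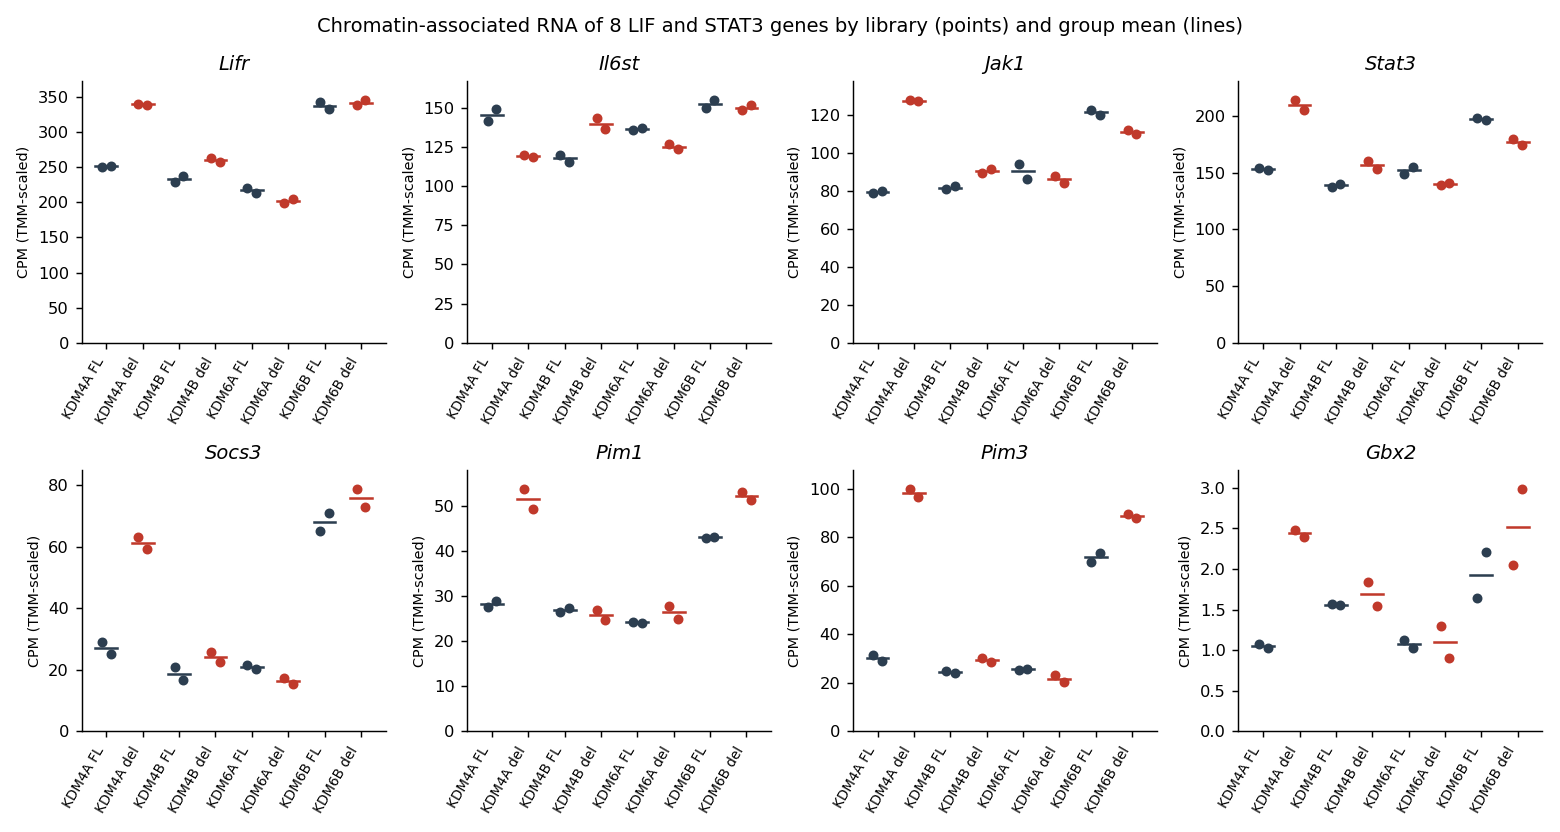
TMM-scaled CPM of each gene (y axis, from 0) in the 16 libraries (points) of the 8 groups (x axis), with group means as lines; dark is full-length and red IDR-deleted. KDM4A del, KDM6B FL and KDM6B del are the 3 highest groups in every panel but that of Il6st, and with ERCC scaling they remain the 3 highest, in another order, for Socs3 and Pim3 only.

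The receptor genes behaved unlike each other. Lifr (ENSMUSG00000054263, chr15:7120095-7226970, plus strand on GRCm39), the ligand-binding subunit, stood in the full-length libraries at 250.4 and 252 CPM with KDM4A, 229 and 237 with KDM4B, 221 and 213 with KDM6A, and 343 and 333 with KDM6B. Lifr in the IDR-deleted libraries was at 341 and 339, 263 and 258, 199 and 204, and 338 and 345 CPM, with the demethylases in that order. With TMM scaling the 6 libraries of KDM4A del-IDR and KDM6B formed a level of their own at 333 CPM or more, and the KDM6A libraries were the lowest. By TMM, KDM6B del-IDR, KDM4A del-IDR and KDM6B FL did not differ from each other beyond their spread (edgeR adjusted p = 0.904 and 0.908 for neighbours), nor did KDM4B del-IDR and KDM4A FL (0.352), and the remaining neighbours in the order did. With ERCC scaling KDM6B del-IDR lay below KDM6B FL (-0.37, edgeR adjusted p = 4.28e-07). KDM4A del-IDR then lay above KDM6B del-IDR (0.43, edgeR adjusted p = 4.79e-09) and did not differ from KDM6B FL (0.06, adjusted p = 0.470). KDM4A FL lay below KDM4B del-IDR (-0.32, edgeR adjusted p = 1.36e-05) with that scaling. Full-length KDM6A minus full-length KDM6B was -0.64 ± 0.04, edgeR adjusted p = 1.64e-17, which turned to 0.28 with ERCC scaling.

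Il6st (ENSMUSG00000021756, chr13:112600604-112646620, plus strand), which encodes gp130, was at 142 and 149 CPM with KDM4A, 120.1 and 115 with KDM4B, 136 and 137 with KDM6A, and 150.0 and 155 with KDM6B. With the IDR deleted, Il6st was at 119.9 and 119, 143 and 136, 127 and 124, and 149 and 152 CPM, in that order. With TMM scaling the range was narrow, and the lowest groups were KDM4B FL and KDM4A del-IDR, a group that was then among the highest for the other 7 genes. From KDM6B FL down to KDM6A FL no 2 neighbours in the order differed, though KDM6A FL was below KDM6B FL (-0.16 ± 0.04, edgeR adjusted p = 0.0022) and above it with ERCC scaling, at 0.76 (adjusted p = 4.95e-18), and the same held from KDM6A del-IDR down to KDM4B FL (adjusted p = 0.180 and 0.717). With ERCC scaling KDM4A del-IDR lay below both KDM6A del-IDR (-0.72, edgeR adjusted p = 1.22e-16) and KDM4B FL (-1.09, adjusted p = 1.43e-25). By mean, KDM4B FL then ranked 2 and KDM6B del-IDR 8 of the 8 groups. Against full-length KDM6B, Il6st in KDM4A del-IDR differed by -0.35 ± 0.04, edgeR adjusted p = 3.53e-08, and by -0.29 with ERCC scaling.

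Jak1 (ENSMUSG00000028530, chr4:101009564-101122479, minus strand), the receptor-bound kinase, had 78.9 and 79.9 CPM with KDM4A, 80.9 and 82.3 with KDM4B, 94.1 and 86.4 with KDM6A, and 122 and 120.1 with KDM6B in the full-length libraries. With IDR-deleted constructs Jak1 stood at 128 and 127, 89.4 and 91.6, 87.8 and 84.3, and 112 and 109.7 CPM, in that order. With TMM scaling KDM4A del-IDR was highest, not called against KDM6B FL (edgeR adjusted p = 0.265), and KDM6B del-IDR followed. The 5 lower groups, at 79.4 to 90.5 CPM on average, had no called difference between neighbours. Groups further apart did differ, such as KDM4A FL and KDM6A FL (-0.18 ± 0.05, edgeR adjusted p = 0.00557, -0.40 (adjusted p = 6.18e-06) with ERCC scaling). With ERCC scaling KDM4A del-IDR, KDM6B FL and KDM6B del-IDR ranked 5, 7 and 8 of the 8 groups, at 92.6, 84.6 and 59.5 CPM. Jak1 shares exon bases with Raver2 on the opposite strand, which drew 2008 reads a library on average against at least 3025 for Jak1, and since strand was ignored in counting, reads of the pair cannot be told apart there. Full-length KDM6A minus full-length KDM6B was -0.43 ± 0.05, edgeR adjusted p = 5.77e-10, and 0.50 with ERCC scaling.

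Stat3 (ENSMUSG00000004040, chr11:100775924-100830366, minus strand), the transcription factor at the end of the chain, followed Jak1. Its full-length libraries held 154 and 152 CPM with KDM4A, 137 and 140.0 with KDM4B, 149 and 155 with KDM6A, and 198 and 196 with KDM6B. Stat3 with the IDR deleted stood at 214 and 205, 160.1 and 153, 139 and 141, and 179.7 and 174 CPM, in that order. With TMM scaling the order was KDM4A del-IDR, KDM6B FL and KDM6B del-IDR, the first pair not differing (edgeR adjusted p = 0.113). Below them lay 5 groups between 139 and 157 CPM on average, of which KDM6A FL lay above its neighbour KDM6A del-IDR (edgeR adjusted p = 0.0427). With ERCC scaling KDM4A del-IDR, KDM6B FL and KDM6B del-IDR ranked 6, 7 and 8 of the 8 groups, at 152, 138 and 94.8 CPM. Stat3 shares exon bases with Stat5a on the opposite strand, which drew 523 reads a library on average against at least 5322 for Stat3. Full-length KDM6A minus full-length KDM6B was -0.38 ± 0.04, edgeR adjusted p = 4.72e-10, and 0.55 with ERCC scaling.

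Socs3 (ENSMUSG00000053113, chr11:117856905-117860873, minus strand), the feedback inhibitor, had the widest range. Its levels in full-length libraries were 29.0 and 25.2 CPM with KDM4A, 20.8 and 16.8 with KDM4B, 21.7 and 20.4 with KDM6A, and 65.2 and 71.1 with KDM6B. Socs3 in the IDR-deleted libraries was at 63.2 and 59.2, 25.7 and 22.7, 17.3 and 15.4, and 78.7 and 72.8 CPM, in that order. The libraries fell into a high set of 6, from 59.2 to 78.7 CPM, and a low set of 10, from 15.4 to 29.0 CPM, with nothing between. Within the high set no neighbours differed (adjusted p = 0.244 and 0.205), but KDM4A del-IDR was lower than KDM6B del-IDR (-0.31 ± 0.09, edgeR adjusted p = 0.00819), though 0.13 and not called with ERCC scaling. KDM6B del-IDR lay below KDM6B FL with ERCC scaling (-0.22, edgeR adjusted p = 0.0390). In the low set no neighbours differed, while groups further apart did, such as KDM4A FL and KDM6A FL (0.37 ± 0.09, edgeR adjusted p = 0.00923, 0.15 (adjusted p = 0.262) with ERCC scaling). Full-length KDM6A minus full-length KDM6B was -1.69 ± 0.09, edgeR adjusted p = 1.39e-13, and IDR-deleted KDM6A minus IDR-deleted KDM6B was -2.21 ± 0.09, edgeR adjusted p = 4.82e-16. Both kept their direction and call with ERCC scaling (-0.77 and -1.12). No other gene shares exon bases with Socs3.

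Pim3 (ENSMUSG00000035828, chr15:88746389-88749929, plus strand), a kinase that promotes survival and growth, showed the same 2 sets. In full-length libraries Pim3 was at 31.3 and 28.9 CPM with KDM4A, 25.0 and 24.0 with KDM4B, 25.4 and 25.8 with KDM6A, and 69.9 and 73.7 with KDM6B. Pim3 with the IDR deleted was at 99.9 and 96.6, 30.4 and 28.6, 23.2 and 20.3, and 89.6 and 87.9 CPM, in that order. Here the order within the high set was resolved in part with TMM scaling: KDM4A del-IDR and KDM6B del-IDR did not differ (adjusted p = 0.0607), and both lay above KDM6B FL. With ERCC scaling KDM4A del-IDR lay above KDM6B del-IDR (0.58, edgeR adjusted p = 1.31e-09) and KDM6B FL (0.51, adjusted p = 2.44e-07). The KDM6B groups then did not differ (-0.07, edgeR adjusted p = 0.481). Full-length KDM4A minus full-length KDM6B was -1.25 ± 0.06, edgeR adjusted p = 3.41e-19, and -0.54 with ERCC scaling.

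Pim1 (ENSMUSG00000024014, chr17:29709727-29715086, plus strand), the related kinase, had a smaller range. Its full-length values were 27.7 and 29.0 CPM with KDM4A, 26.4 and 27.3 with KDM4B, 24.4 and 24.2 with KDM6A, and 43.0 and 43.2 with KDM6B. Pim1 in the deleted groups was at 53.8 and 49.5, 26.9 and 24.7, 27.9 and 25.0, and 53.1 and 51.4 CPM, in that order. With TMM scaling KDM6B del-IDR and KDM4A del-IDR did not differ beyond their spread (adjusted p = 0.890) and both lay above KDM6B FL. With ERCC scaling KDM4A del-IDR lay above KDM6B del-IDR (0.42, edgeR adjusted p = 1.66e-05) and KDM6B FL (0.32, adjusted p = 0.00229). The KDM6B groups then did not differ (-0.10, edgeR adjusted p = 0.337). By TMM the other 5 groups, at 24.3 to 28.4 CPM on average, had no called difference between neighbours, though KDM4A FL lay above KDM6A FL (0.23 ± 0.07, edgeR adjusted p = 0.0285, 0.01 (adjusted p = 0.942) with ERCC scaling). Full-length KDM6A minus full-length KDM6B was -0.83 ± 0.07, edgeR adjusted p = 8.12e-13, but 0.09 (adjusted p = 0.307) with ERCC scaling. The antisense gene Gm26885, with 297 reads a library on average against 846 to 2619 for Pim1, shares exon bases with it.

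Gbx2 (ENSMUSG00000034486, chr1:89855678-89858901, minus strand), a homeobox gene that LIF induces in these cells, was near 1 to 3 CPM throughout. Full-length libraries held 1.07 and 1.03 CPM with KDM4A, 1.56 and 1.55 with KDM4B, 1.13 and 1.03 with KDM6A, and 1.65 and 2.21 with KDM6B. Gbx2 with deleted constructs had 2.48 and 2.40, 1.83 and 1.55, 1.30 and 0.902, and 2.04 and 2.98 CPM, in that order. Libraries of 1 group differed by up to 0.94 CPM, in KDM6B del-IDR, and no 2 neighbours in the order of group means differed. It was called in 11 of 28 group pairs, the fewest of the 8 genes. Gbx2 shares exon bases with D130058E05Rik on the opposite strand, which drew 150 reads a library on average, where Gbx2 itself drew 36 to 152, so its counts are uncertain.

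The full-length groups alone differed in these genes between demethylases. The shares of all genes given here are for TMM scaling. Counts with ERCC scaling have no such share beside them, so they show nothing particular to these genes. With TMM scaling all 8 genes were lower with full-length KDM6A than with full-length KDM6B, a pair in which 50.7% of genes differed, while with ERCC scaling Socs3 and Pim3 remained lower and Lifr, Il6st, Jak1 and Stat3 turned higher. Of the 8, 7 were lower with KDM4A than with KDM6B (47.8% of genes called), and with ERCC scaling 3 were higher and 2 lower. Likewise 7 were lower with KDM4B than with KDM6B (57.1%), and with ERCC scaling 6 were higher and 2 lower. Socs3, Pim1, Pim3 and Gbx2 are short genes. With TMM, protein-coding genes spanning up to 6000 bases had medians of -0.33 for KDM6A and -0.27 for KDM4A, each minus KDM6B. Of these short genes 40.7% and 37.8% were lower and 14.6% and 14.3% higher. For spans of at least 40000 bases the medians were 0.03 and 0.02, and the part of span was not tested. Between KDM4A and KDM4B 5 of the 8 were called (24.3% of genes), all higher with KDM4A, but with ERCC scaling 0 were higher and 6 lower. Between KDM4A and KDM6A it was 5 (12.6%), 4 higher and 1 lower with KDM4A, and 0 higher and 2 lower with ERCC scaling. Between KDM4B and KDM6A it was 4 (23%), 1 higher and 3 lower with KDM4B, and 3 higher and 0 lower with ERCC scaling. For the deleted constructs, all 8 were lower with KDM6A than with KDM6B (61% of genes called), but 4 were higher and 2 lower with ERCC scaling. With KDM4A against KDM4B, 6 were higher and 1 lower (45.6%), but 2 higher and 4 lower with ERCC scaling. Of the 3 groups that were high for 7 genes, KDM4A del-IDR differed from KDM6B FL in 3 genes (30.1%), 2 higher and 1 lower under either scaling, and from KDM6B del-IDR in 4 (33.9%), 2 higher and 2 lower, or 5 higher and 0 lower with ERCC scaling.

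Of the 4 deletion contrasts, that of KDM4A held the largest TMM-scaled change of each of the 8 genes. Pim3 rose 3.26-fold (1.71 ± 0.06, edgeR adjusted p = 3.81e-23, 1.05 with ERCC scaling), Socs3 2.26-fold (1.17 ± 0.09, edgeR adjusted p = 8.75e-11, 0.52 with ERCC scaling) and Pim1 1.82-fold (0.86 ± 0.07, edgeR adjusted p = 1.97e-13, 0.21 with ERCC scaling). Gbx2 rose 2.32-fold (1.21 ± 0.28, edgeR adjusted p = 0.000298, 0.56 and not called with ERCC scaling). These 4 are targets of STAT3. Of the signalling genes, Jak1 rose (0.68 ± 0.05, edgeR adjusted p = 2.25e-15, 0.03 and not called with ERCC scaling), and Stat3 (0.45 ± 0.04, edgeR adjusted p = 5.06e-12, -0.20 with ERCC scaling) and Lifr (0.44 ± 0.04, edgeR adjusted p = 6.91e-13, -0.22 with ERCC scaling) rose with TMM and fell with ERCC scaling. Il6st fell under both scalings (-0.29 ± 0.04, edgeR adjusted p = 5.83e-07, -0.94 with ERCC scaling). With TMM 7 of 8 genes were higher, where 24.6% of all genes rose, and 1 lower, where 25.9% fell (50.5% called in all). With ERCC scaling 3 were higher and 3 lower, where 1464 of 31057 genes rose and 17766 fell. By TMM the median of the 8 was 0.77 and that of all genes -0.05. Deleted and full-length libraries did not overlap for any of the 8, as for 73.2% of genes. Socs3, Pim1, Pim3 and Gbx2 span 3224 to 5360 bases and the other 4 genes 46017 to 112916. The median TMM-scaled change of protein-coding genes was 0.15 for spans of up to 6000 bases and 0.07 for spans of at least 40000. Of those short genes 31% rose and 20.7% fell, and of the long ones 37.9% and 29%. The part of span was not tested. In the same contrast intronic repeat reads went from 53.3 to 38.4 per 100 gene reads and the summed primitive endoderm markers from 244 to 511 CPM, and the part of these shifts was not tested.

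In KDM4B the changes were small. Socs3 (0.36 ± 0.09, edgeR adjusted p = 0.00339, 0.17 and not called with ERCC scaling), Pim3 (0.27 ± 0.06, edgeR adjusted p = 0.000972, 0.08 and not called with ERCC scaling) and Il6st (0.25 ± 0.04, edgeR adjusted p = 1.33e-05, 0.06 and not called with ERCC scaling) rose most. Stat3 (0.18 ± 0.04, edgeR adjusted p = 0.000663, -0.01 and not called with ERCC scaling), Lifr (0.16 ± 0.04, edgeR adjusted p = 0.000584, -0.03 and not called with ERCC scaling) and Jak1 (0.15 ± 0.05, edgeR adjusted p = 0.0108, -0.04 and not called with ERCC scaling) rose slightly with TMM and lay just below 0 with ERCC scaling. Pim1 did not pass with TMM and was lower with ERCC scaling (-0.06 ± 0.07, edgeR adjusted p = 0.574, -0.24 and called with ERCC scaling), and Gbx2 passed with neither (0.12 ± 0.27, edgeR adjusted p = 0.784, -0.07 with ERCC scaling). So 6 of 8 were higher and 0 lower, beside 18.6% and 17.6% of all genes (36.2% called), and 6 of 8 did not overlap, beside 66.8%. None of the 6 rises was called with ERCC scaling, where 2876 of 31057 genes rose and 8573 fell. Of the 8 primitive endoderm markers 4 rose and 0 fell (median 0.91), and 3 rose with ERCC scaling (median 0.72), and their part was not tested. Jak1 lost its call without replicate 1 of KDM4B FL or replicate 2 of KDM4B del-IDR (adjusted p = 0.0587 and 0.0824), and Socs3 without replicate 2 of KDM4B FL or replicate 1 of KDM4B del-IDR (0.0646 and 0.0587).

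In KDM6A the genes called were all slightly lower after deletion. Socs3 (-0.36 ± 0.09, edgeR adjusted p = 0.00843, -0.58 with ERCC scaling) and Pim3 (-0.24 ± 0.07, edgeR adjusted p = 0.00802, -0.45 with ERCC scaling) fell, and Lifr (-0.11 ± 0.04, edgeR adjusted p = 0.0401, -0.32 with ERCC scaling), Il6st (-0.13 ± 0.04, edgeR adjusted p = 0.0406, -0.34 with ERCC scaling) and Stat3 (-0.12 ± 0.04, edgeR adjusted p = 0.0427, -0.33 with ERCC scaling) fell by less. Jak1 (-0.07 ± 0.05, edgeR adjusted p = 0.376, -0.29 and called with ERCC scaling), Pim1 (0.12 ± 0.07, edgeR adjusted p = 0.275, -0.09 with ERCC scaling) and Gbx2 (0.02 ± 0.29, edgeR adjusted p = 0.985, -0.20 with ERCC scaling) did not pass with TMM. The count was 5 lower and 0 higher, beside 8.65% and 8.3% of all genes (17% called), and 6 of 8 did not overlap, beside 53.6%. The 3 small falls were marginal: only Socs3 and Pim3 were called with median-ratio scaling, without the filter on low counts or in a fit of the 4 KDM6A libraries alone. Without replicate 2 of KDM6A del-IDR 0 of 8 were called, and without replicate 1 or 2 of KDM6A FL 1 was. The count was 2 without replicate 1 of KDM6A del-IDR, replicate 1 of KDM4A FL, or either library of KDM4B FL or KDM6B del-IDR.

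In KDM6B 4 of the 8 genes were called with TMM scaling. Pim3 (0.31 ± 0.06, edgeR adjusted p = 0.00026, -0.07 and not called with ERCC scaling) and Pim1 (0.28 ± 0.07, edgeR adjusted p = 0.00265, -0.10 and not called with ERCC scaling) rose with TMM scaling, while Stat3 (-0.16 ± 0.04, edgeR adjusted p = 0.00476, -0.54 with ERCC scaling) and Jak1 (-0.13 ± 0.05, edgeR adjusted p = 0.0457, -0.51 with ERCC scaling) fell with both. Socs3 (0.15 ± 0.09, edgeR adjusted p = 0.244, -0.22 and called with ERCC scaling), Lifr (0.02 ± 0.04, edgeR adjusted p = 0.829, -0.37 and called with ERCC scaling) and Il6st (-0.02 ± 0.04, edgeR adjusted p = 0.811, -0.40 and called with ERCC scaling) did not pass with TMM and were lower with ERCC scaling. Gbx2 passed with neither (0.38 ± 0.25, edgeR adjusted p = 0.318, 0.01 with ERCC scaling). That is 2 higher and 2 lower, beside 9.89% and 10.7% of all genes (20.6% called), with 5 of 8 not overlapping, beside 58%. The median change of protein-coding genes was 0.15 for spans of up to 6000 bases and -0.008 for spans of at least 40000. Of the short genes 14.9% rose and 3.6% fell, and of the long ones 15.5% and 17.5%. Pim1 and Pim3 are short, Stat3 and Jak1 long, and the part of span was not tested. Intronic repeat reads went from 36.6 to 27.6 per 100 gene reads and ribosomal protein reads from 2.06% to 2.63%, and their part was not tested. The call of Jak1 was lost when any 1 of the 4 KDM6B libraries was left out (adjusted p = 0.0956 to 0.224), and also without replicate 1 of KDM4A FL, either KDM4B FL library or replicate 2 of KDM4B del-IDR (0.0501 to 0.0521). That of Stat3 was lost without replicate 2 of KDM6B del-IDR (0.0823).

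**Figure D2:**
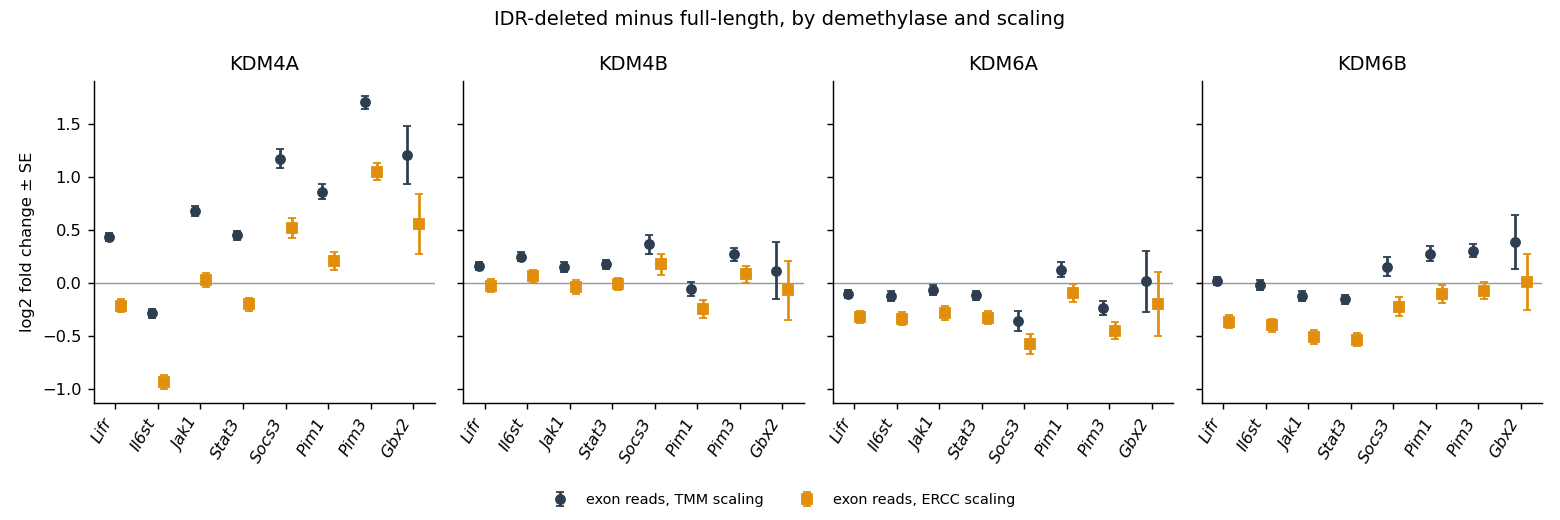
Log2 fold change ± SE (y axis) of the 8 genes (x axis) in the 4 deletion contrasts, full-length subtracted from deleted, with TMM scaling (circles) and ERCC scaling (squares). In KDM4A the circles of 7 genes lie above 0 and ERCC scaling moves Lifr to -0.22 and Stat3 to -0.20, while Socs3, Pim1 and Pim3 stay above 0.

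For KDM4A minus KDM4B the deletion effects of all 8 genes passed the test of the difference (31.1% of genes did), with 1.44 ± 0.09, edgeR adjusted p = 1.88e-15 for Pim3, 0.92 ± 0.10, edgeR adjusted p = 1.46e-09 for Pim1, 0.81 ± 0.13, edgeR adjusted p = 2.75e-05 for Socs3 and -0.53 ± 0.06, edgeR adjusted p = 6.32e-09 for Il6st. These 4 passed with ERCC scaling too, and the other 4 did not. That of Gbx2 (1.09 ± 0.38, edgeR adjusted p = 0.0261) was lost without either KDM4A FL library, either KDM4B FL library, replicate 1 of KDM4A del-IDR or replicate 2 of KDM4B del-IDR (0.062 to 0.1). For KDM6A minus KDM6B 2 of 8 passed, near the 21.8% of all genes that did, namely Pim3 (-0.54 ± 0.09, edgeR adjusted p = 1.48e-05) and Socs3 (-0.52 ± 0.13, edgeR adjusted p = 0.00483). For Socs3 and Pim3 the deletion effects were 1.17 and 1.71 with KDM4A (0.52 and 1.05 with ERCC scaling), 0.36 and 0.27 with KDM4B (0.17 and 0.08), -0.36 and -0.24 with KDM6A (-0.58 and -0.45), and 0.15 and 0.31 with KDM6B (-0.22 and -0.07). The 4 contrasts share no library.

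**Figure D3:**
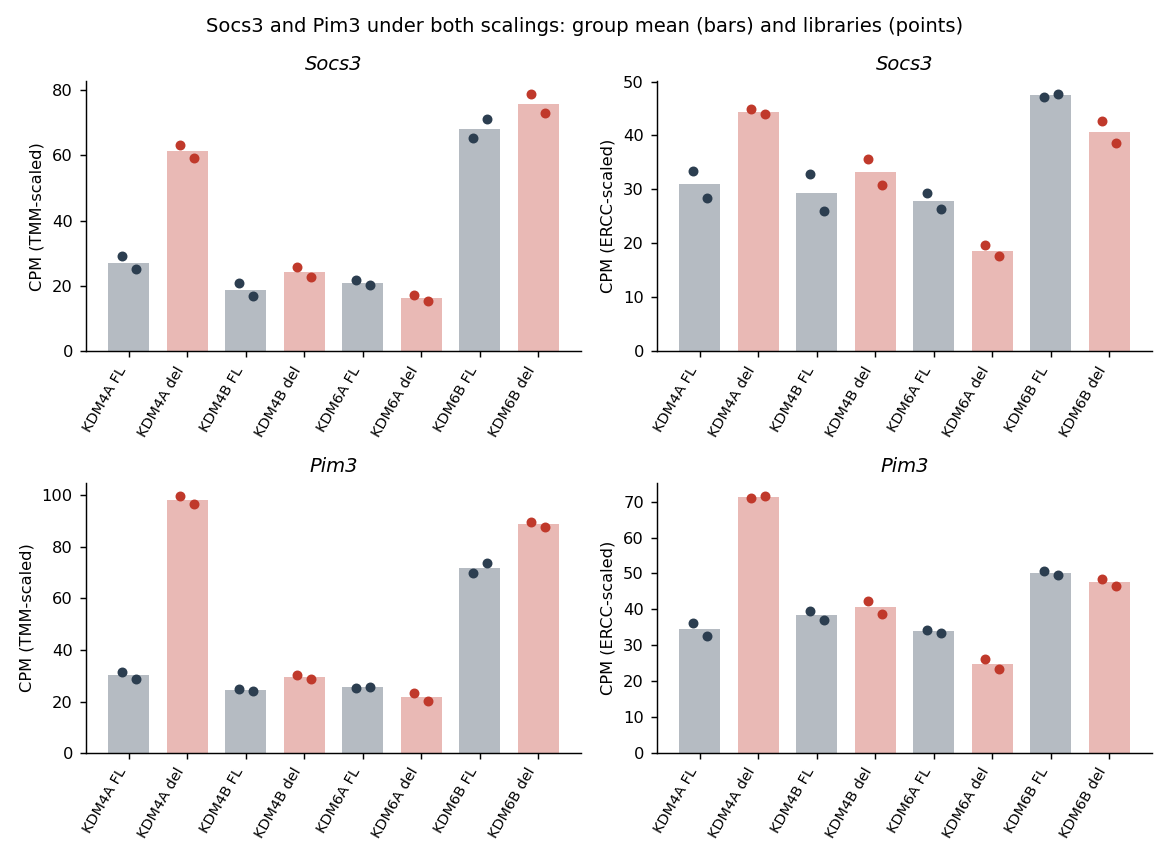
Levels of Socs3 (top) and Pim3 (bottom) in the 8 groups, as CPM scaled by TMM (left) or by ERCC reads (right), with bars from 0 for group means and points for libraries; dark is full-length and red IDR-deleted. KDM4A del and both KDM6B groups are the 3 highest in all 4 panels, with a smaller lead under ERCC scaling.

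A second readout came from repeat copies that lie wholly within introns of these genes, whose reads can come from unspliced RNA or from transcription of the repeats. Lifr held 151 such copies with reads, Jak1 140, Stat3 116, Il6st 59, Pim1 4 and Pim3 2. Socs3 had none, and Gbx2, with 3, drew too few reads to be tested, which left 6 of the 8 genes. Per 100 exon reads, Jak1 had 34.7 and 34.7 intronic repeat reads in the KDM6B del-IDR libraries, 52.1 and 52.2 in KDM6B FL, 64.3 and 65.0 in KDM4A del-IDR and 78.0 to 97.0 in the other 10. Stat3 had 37.6 and 38.6, 52.9 and 49.1 and 57.6 and 62.2 in those groups and 66.1 to 81.0 elsewhere. Lifr had 25.3 and 24.4, 33.7 and 31.9 and 28.8 and 29.5 against 39.4 to 48.8. In these 3 genes the 3 groups were lowest, without overlap. They were also lowest over all genes, at 27.6, 36.6 and 38.4 intronic repeat reads per 100 gene reads against 53.3 to 64.2 elsewhere, and exon reads, which were high in these groups by TMM, are the denominator, so nothing particular to these genes is shown. Il6st differed in one respect: KDM6B del-IDR was lowest (26.0 and 25.9), KDM6B FL was next (35.7 and 34.7), and KDM4A del-IDR (34.3 and 39.2) overlapped the other groups (37.4 to 46.0).

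**Figure D4:**
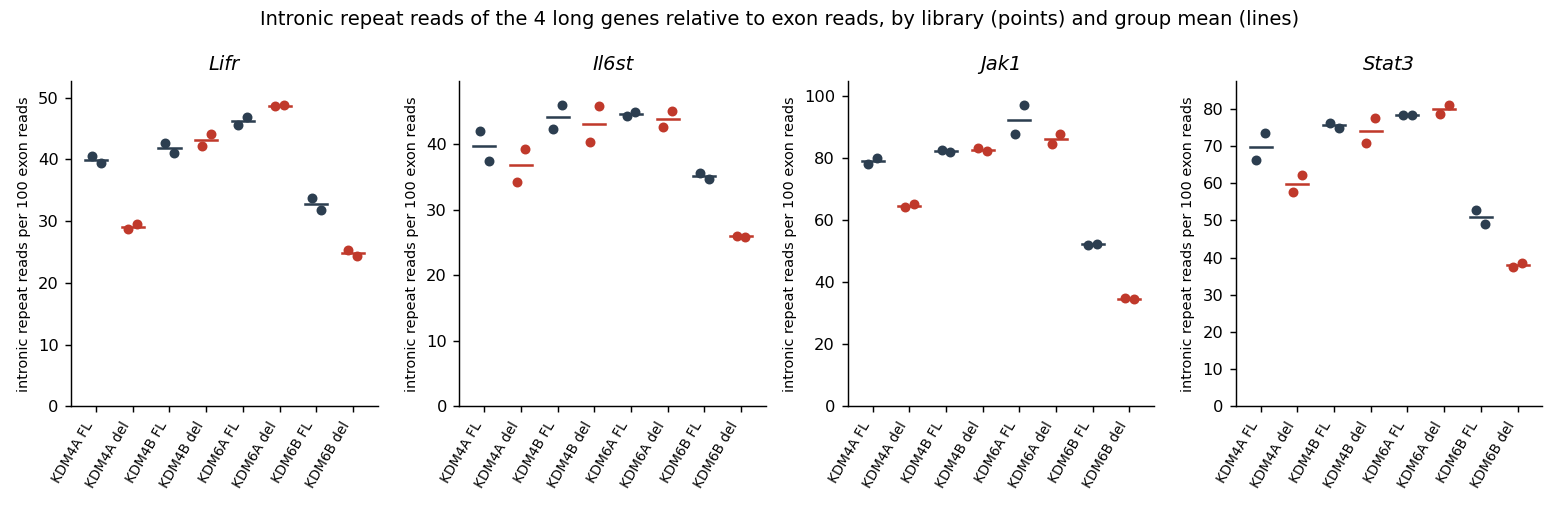
Intronic repeat reads per 100 exon reads (y axis, from 0) of Lifr, Il6st, Jak1 and Stat3 in the 16 libraries (points) with group means (lines); dark is full-length and red IDR-deleted. KDM6B del is the lowest group in each panel, at 24.4 to 26.0 for Lifr and Il6st and 34.7 to 38.6 for Jak1 and Stat3.

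In the KDM4A contrast with TMM scaling, intronic repeat reads had the direction of the exon reads in 5 of the 6 genes. Pim3 (1.86 ± 0.58, edgeR adjusted p = 0.00534), Pim1 (0.76 ± 0.20, edgeR adjusted p = 0.00109), Jak1 (0.39 ± 0.05, edgeR adjusted p = 3.86e-09) and Stat3 (0.23 ± 0.05, edgeR adjusted p = 7.96e-05) rose with TMM scaling, though Jak1 (-0.26) and Stat3 (-0.42) fell with ERCC scaling, beside 17.4% of all genes, and Il6st fell (-0.40 ± 0.06, edgeR adjusted p = 2.02e-07), giving 5 calls beside 54.8% of genes. Lifr, whose exon reads rose, stayed at -0.02 ± 0.05, edgeR adjusted p = 0.744 in its introns. Pim3 rested on 10.5 and 26.5 reads a library on average, so its size is poorly known. With ERCC scaling Pim1 (0.11) and Pim3 (1.21) were no longer called, and Lifr fell (-0.67). The median intronic value over 20944 genes was -0.24.

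In the KDM6B contrast the intronic readout of the long genes fell under both scalings. Intronic repeat reads of Jak1 (-0.71 ± 0.05, edgeR adjusted p = 1.02e-16), Stat3 (-0.58 ± 0.05, edgeR adjusted p = 1.76e-14), Il6st (-0.46 ± 0.06, edgeR adjusted p = 7.03e-09) and Lifr (-0.38 ± 0.05, edgeR adjusted p = 9.51e-10) were lower with the deletion, while the log2 changes in their exon reads were -0.13, -0.16, -0.02 and 0.02. The difference between the readouts was not tested. That is 4 of the 6 genes lower, beside 34.9% of all genes (39.8% called), where the median gene stood at -0.23. Pim1 (-0.10 ± 0.20, edgeR adjusted p = 0.742) and Pim3 (0.33 ± 0.55, edgeR adjusted p = 0.689) did not pass, though with ERCC scaling Pim1 was lower (-0.48) and Pim3 lay at -0.04. In KDM4B the 4 long genes rose with TMM by 0.15 to 0.21 in intronic repeat reads and by 0.15 to 0.25 in exon reads (4 of 6, beside 16.7% of genes higher and 41% called), but none was called with ERCC scaling, where Jak1 (-0.03) and Stat3 (-0.04) lay below 0. Without replicate 2 of KDM4B del-IDR 1 of those 4 was called, and Jak1 also lost its call without replicate 1 of KDM4B FL (0.0528). For KDM6A, Jak1 fell (-0.17 ± 0.05, edgeR adjusted p = 0.0155) and Pim1 rose (0.61 ± 0.22, edgeR adjusted p = 0.0483), 2 of 6 beside 18.8% of genes, and with ERCC scaling Pim1 was no longer called (0.39) while Lifr, Il6st and Stat3 fell with Jak1. Jak1 lost its call without any 1 of the 4 KDM6A libraries (0.0633 to 0.119). Pim1 lost it without replicate 2 of KDM6A FL (0.435), replicate 1 of KDM6A del-IDR (0.376), replicate 2 of KDM4A FL, replicate 1 of KDM4B del-IDR or either KDM6B del-IDR library (0.0503 to 0.0518).

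**Figure D5:**
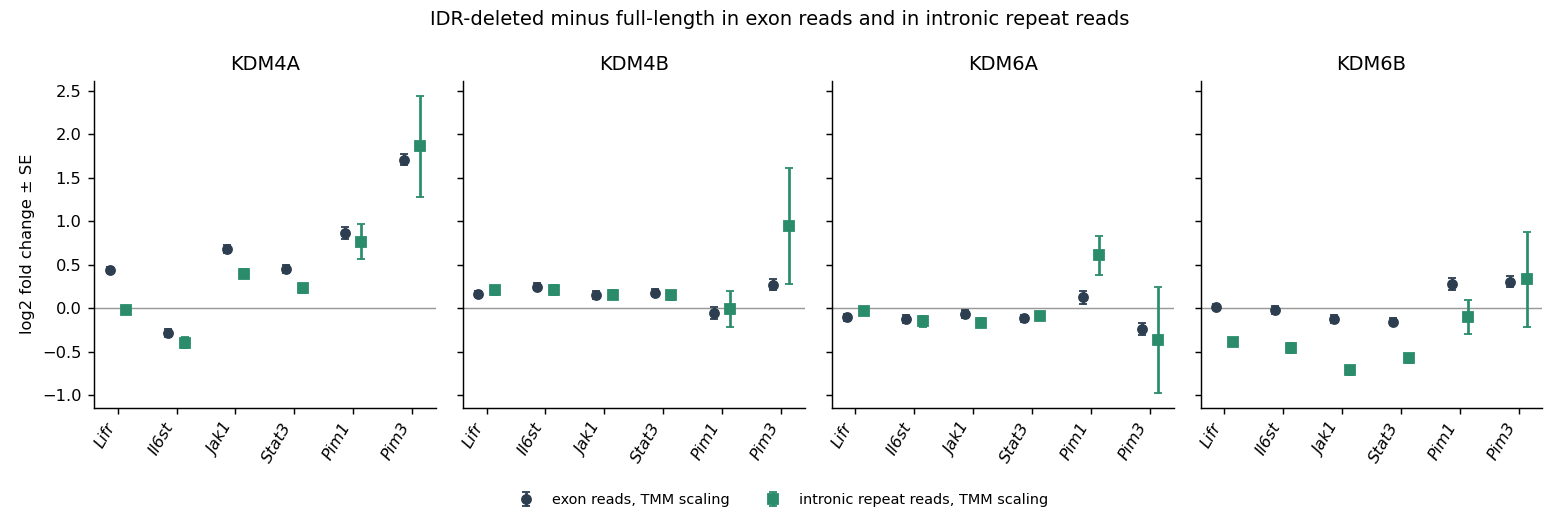
Log2 fold change ± SE (y axis), IDR-deleted minus full-length, in exon reads (circles) and intronic repeat reads (squares) of the 6 genes tested in both (x axis), with TMM scaling. In KDM6B the squares of Lifr, Il6st, Jak1 and Stat3 lie at -0.38 to -0.71, below their circles; in KDM4A those of Jak1 and Stat3 lie above 0 here and below 0 with ERCC scaling.

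The wider pathway moved in both directions. Beside the list medians, the median over all genes was -0.05 in KDM4A, 0.01 in KDM4B and 0.00 in KDM6A and KDM6B. The shares of all genes that rose and fell with TMM were 24.6% and 25.9% in KDM4A, 18.6% and 17.6% in KDM4B, 8.3% and 8.65% in KDM6A, and 9.89% and 10.7% in KDM6B. With ERCC scaling, of 31057 genes, 1464 rose and 17766 fell in KDM4A and 2876 and 8573 in KDM4B. In KDM6A it was 443 and 7140, and in KDM6B 661 and 13293. The medians over all genes were then -0.70, -0.18, -0.21 and -0.38. The list counts are to be read against these, so many falls with ERCC scaling are nothing particular to the lists. Of 15 ligands and receptors that use gp130, 4 rose and 1 fell with the KDM4A deletion (median 0.04), and 1 rose and 5 fell with ERCC scaling (median -0.62). Il11ra1, the receptor of interleukin-11, rose (1.05 ± 0.14, from 6.49 to 13.5 CPM) and Il6ra, that of interleukin-6, fell (-0.69 ± 0.09, from 17.7 to 10.96 CPM). In KDM4B 0 rose and 1 fell (median -0.14), again Il6ra (-0.35 ± 0.09, from 19.1 to 14.9 CPM). In KDM6A 1 rose and 2 fell (median -0.04). The ligand gene Lif rose (0.46 ± 0.10, from 10.3 to 14.1 CPM, 0.24 and not called with ERCC scaling) and Il11ra1 was among the falls (-0.51 ± 0.14, from 5.87 to 4.15 CPM). In KDM6B 2 rose and 1 fell (median 0.21), among them Il27ra, an interleukin-27 receptor subunit (0.39 ± 0.11, from 11.2 to 14.6 CPM, 0.01 and not called with ERCC scaling), and the ligand gene Cntf, which is hardly expressed here (-1.97 ± 0.48, from 0.615 to 0.159 CPM). With ERCC scaling no gene of this list rose in those 3 contrasts, and 4, 2 and 2 fell.

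Among 14 other JAK and STAT genes and receptor-bound adaptors, 9 rose and 1 fell in KDM4A (median 0.23). Jak2, a sister kinase of Jak1, rose (1.02 ± 0.06, from 32.7 to 66.1 CPM), and so did Sos1, which couples receptors to Ras (0.68 ± 0.05, from 151 to 242 CPM, 0.03 and not called with ERCC scaling). KDM4B gave 5 rises and 3 falls (median 0.00), led by Stat4 (1.10 ± 0.11, from 8.01 to 17.1 CPM) and the adaptor Gab1 (-0.33 ± 0.04, from 214 to 169.9 CPM). KDM6A gave 0 rises and 4 falls (median -0.08), Stat2 (-0.32 ± 0.04, from 139 to 111 CPM) and Jak2 (-0.34 ± 0.06, from 32.2 to 25.4 CPM) by the smallest p. KDM6B gave 1 rise (median 0.05), Stat5b (0.59 ± 0.10, from 15.6 to 23.5 CPM, 0.22 and not called with ERCC scaling), and 1 fall, Gab1 (-0.12 ± 0.04, from 227 to 209 CPM). With ERCC scaling this list had 1 rise and 10 falls in KDM4A, where Jak2 was still higher, and 3 and 7, 0 and 10, and 0 and 11 in KDM4B, KDM6A and KDM6B.

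The 15 tested negative regulators, relatives of Socs3 in function, moved in both directions. In KDM4A 6 rose and 4 fell (median 0.09), with Pias4 (1.12 ± 0.06, from 44.1 to 95.7 CPM) and Pias1 (0.56 ± 0.05, from 69.1 to 102 CPM, -0.10 and not called with ERCC scaling), inhibitors of activated STAT, at the top by p. With the KDM4B deletion 3 rose and 4 fell (median -0.08), among them Socs2, a sister gene of Socs3 (-0.93 ± 0.07, from 54.6 to 28.7 CPM), and Pias1 (0.50 ± 0.05, from 62.9 to 88.7 CPM). With KDM6A 3 rose and 1 fell (median -0.08), with Ptpn6, a phosphatase that acts on JAK kinases (-0.37 ± 0.11, from 13.9 to 10.7 CPM), and Socs4 (0.22 ± 0.07, from 35.6 to 41.5 CPM, 0.01 and not called with ERCC scaling). With KDM6B 1 rose (median 0.06), the phosphatase gene Ptpn1 (0.24 ± 0.06, from 41.2 to 48.5 CPM, -0.14 and not called with ERCC scaling), and 2 fell, one of them Pias3 (-0.29 ± 0.06, from 49.6 to 40.6 CPM). With ERCC scaling the rises and falls were 1 and 10, 1 and 9, 0 and 10, and 0 and 11.

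For 18 other genes known as STAT3 targets, 7 rose and 6 fell in KDM4A (median 0.07). Vegfa, a growth factor of blood vessels, rose (0.95 ± 0.04, from 138 to 267 CPM), as did Tfcp2l1, a STAT3 target that supports self-renewal (0.67 ± 0.03, from 503 to 800.3 CPM, 0.02 and not called with ERCC scaling). For KDM4B 7 rose and 8 fell (median -0.14), with Vegfa up (1.01 ± 0.04, from 73.1 to 147 CPM) and Klf5, a pluripotency factor, down (-0.67 ± 0.05, from 159 to 99.9 CPM). For KDM6A 5 rose and 3 fell (median 0.07), with Vegfa down (-0.51 ± 0.04, from 112 to 78.6 CPM) and the cyclin gene Ccnd1 up (0.59 ± 0.08, from 17.3 to 26.0 CPM). For KDM6B 2 rose and 4 fell (median -0.12), with Tfcp2l1 (-0.23 ± 0.03, from 786 to 670.2 CPM) and the kinase gene Sgk1 (-0.23 ± 0.04, from 199 to 169.8 CPM) down. ERCC scaling gave 3 and 11, 3 and 11, 3 and 7, and 0 and 16 rises and falls.

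Likeness to each member was the Pearson correlation of the 8 group means of log2 CPM, over 11419 genes with a mean of at least 5 CPM. Genes without a symbol, unnamed gene models, pseudogenes and the members themselves were left out. Within that set the genes most like each member were these. For Socs3 they were Anapc2 (r = 0.998) and Maea (r = 0.997), for Pim3 Exoc7 (r = 0.998) and Rae1 (r = 0.997), and for Pim1 Eif3b (r = 0.996) and Kdm4c (r = 0.994). For Lifr they were Gzf1 (r = 0.995) and Cbx2 (r = 0.994), for Jak1 Dalrd3 (r = 0.989) and Arfgef2 (r = 0.989), and for Stat3 Rbbp5 (r = 0.991) and Heatr5b (r = 0.990). Those of Il6st were Jdp2 (r = 0.971) and LTO1 (r = 0.965), and those of Gbx2 Slco4a1 (r = 0.990) and Itgb4 (r = 0.988). These are descriptions over 8 points that share libraries and scaling.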

How the data were processed

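RNA bound to chromatin was measured in 16 libraries, 8 groups of 2. The authors aligned reads with HISAT2 to GRCm39 per the submitters' processing notes, and counted reads per gene and per repeat copy with featureCounts 2.0.3 per the file headers, at a mapping quality of at least 30, each read counted by itself, strand ignored and multimapping reads left out. The deposited values are raw counts. Symbols were matched for 51948 of 56941 genes by Ensembl ID. Counts were tested with edgeR 4.0.16 (quasi-likelihood, TMM, R 4.3.3) on 31057 genes past a minimum count of 10, as 8 group means with 8 residual degrees of freedom and Benjamini-Hochberg adjustment over all genes. Intronic repeat reads, summed over copies in a gene's span outside all exons, were tested in the same way with the gene fit's library sizes (20944 genes), leaving out 6 repeat entries of several intervals. ERCC scaling used the summed reads of 92 control RNAs. For a check of the code, counts were simulated with 1 mean per gene for all groups, and 200 of 30142 genes were changed 2-fold in KDM4A del-IDR. Of these 200, 198 were called, as were 11 unchanged genes. Changes in rare genes, smaller changes and a shift of most genes were not simulated, so the accuracy of the calls above was not measured. Alternatives were DESeq2 1.42.0, median-ratio and ERCC scaling, no filter, fits of 4 libraries, a replicate block and each library left out. An exact test of 2 against 2 libraries cannot give a p below 0.33, so none was used. The members and gene lists were chosen with earlier results of these data known. The named genes are the members, the 2 genes most like each, and for each list and contrast up to 2 called genes of smallest p. Promoter sequences are from RefSeq.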

Additional observations from a re-analysis of the deposited data

Results flagged for a closer look

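The effect of the IDR deletion differed between KDM4A and KDM4B for all 8 genes, by the edgeR test of the difference itself (adjusted p under 0.05), which 31.1% of all genes passed. The log2 difference was 1.44 ± 0.09 for Pim3, 0.92 ± 0.10 for Pim1, 0.81 ± 0.13 for Socs3 and 1.09 ± 0.38 for Gbx2, all STAT3 targets. It was 0.53 ± 0.07 for Jak1, 0.28 ± 0.05 for Lifr and 0.27 ± 0.06 for Stat3, of which Lifr (-0.19) and Stat3 (-0.19) changed sign with ERCC scaling. With that scaling the differences of Jak1, Lifr, Stat3 and Gbx2 were not called, while those of Pim3, Pim1, Socs3 and Il6st were. Il6st differed the other way, by -0.53 ± 0.06. For KDM6A minus KDM6B 2 of 8 genes passed, near the 21.8% of all genes that did, with -0.54 ± 0.09 for Pim3 and -0.52 ± 0.13 for Socs3, both of which fell in KDM6A. Shares of intronic repeat, ribosomal protein and ERCC reads moved with the KDM4A deletion, and their part was not tested.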

How the results depend on the processing

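DESeq2 kept the direction and call of all 32 member values it was run on. ERCC scaling reversed 22 of 72 member values. Those were, in the KDM4A contrast, Lifr (-0.22) and Stat3 (-0.20), and the intronic repeat reads of Jak1 (-0.26) and Stat3 (-0.42). In KDM4B they were Lifr (-0.027), Jak1 (-0.038), Stat3 (-0.011) and Gbx2 (-0.070), and the intronic reads of Jak1 (-0.032) and Stat3 (-0.041). In KDM6A they were Pim1 (-0.092) and Gbx2 (-0.20). In KDM6B they were Lifr (-0.37), Socs3 (-0.22), Pim1 (-0.10), Pim3 (-0.073) and the intronic reads of Pim3 (-0.041). Of the differences between deletion effects they were Lifr (-0.19) and Stat3 (-0.19) for KDM4A minus KDM4B, and Il6st (0.060), Lifr (0.044) and Pim1 (0.011) for KDM6A minus KDM6B. With ERCC scaling 1 member was called in KDM4B (6 with TMM), 4 in KDM4A minus KDM4B (8), and by intronic reads 0 in KDM4B (4) and 4 in KDM6A (2), and 13954 genes were called in KDM6B (6406). Of genes called, the share higher was 7.61, 25.1, 5.84 and 4.74% in KDM4A, KDM4B, KDM6A and KDM6B, against 48.7, 51.5, 49.0 and 48.0% with TMM. In KDM6A 2 members were called (5 as reported) in the fit of 4 libraries, with median-ratio scaling and without the filter, and the cause was not tested.

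Leaving out 1 library gave 0 to 5 members and 3484 to 5375 genes called in KDM6A (lowest without replicate 2 of KDM6A del-IDR and replicate 1 of KDM6A FL), 2 to 4 members and 4078 to 6561 genes in KDM6B (lowest without replicate 2 of KDM6B del-IDR and replicate 1 of KDM6B FL), and by intronic reads 1 to 4 members in KDM4B and 0 to 2 in KDM6A. It reversed Gbx2 in KDM4B (-0.0087 to 0.24) and KDM6A (-0.25 to 0.26), Il6st (-0.046 to 0.0067) and Lifr (-0.0035 to 0.035) in KDM6B, Pim1 in KDM4B (-0.12 to 0.0040, intronic -0.16 to 0.14), Jak1 in KDM6A minus KDM6B (-0.00031 to 0.12) and the intronic reads of Pim3 in KDM4B (-0.26 to 1.58), none of them called. A group left with 1 library takes its spread from the others. The narrower STAT pattern was in 0 members in place of 1.

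The deviations of same-numbered libraries correlated at r = 0.103 to 0.172 in the 15 pairs among the 6 KDM4A, KDM4B and KDM6A groups and at -0.0026 to 0.034 in the 13 pairs with a KDM6B group. The labels do not say what a number shares, and since not every pair was over 0.1 the libraries were not treated as paired. With a replicate block 8, 6, 5 and 4 members were called in KDM4A, KDM4B, KDM6A and KDM6B, as without it, among 16057, 11908, 6055 and 7291 genes in place of 15672, 11240, 5265 and 6406. By intronic reads Il6st was gained in KDM6A (-0.15, edgeR adjusted p = 0.0463).

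Depth limits Gbx2, with at most 152 reads a library, and the intronic reads of Pim3.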
